A study of Mus musculus with 18 samples.

Results

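Primitive endoderm genes were followed through polysome gradients of wild type (WT) and Dgcr8 knockout (KO) mouse embryonic stem cells (ESCs). The 10 genes are Gata4, Gata6, Sox17 and Sox7, which encode transcription factors, Pdgfra, which encodes a growth factor receptor, Dab2, which encodes an endocytic adaptor, Lama1 and Lamb1, which encode laminin chains, and Col4a1 and Col4a2, which encode collagen IV chains. They were chosen by symbol, not by their values, and all 10 were found among the 51467 genes of the count table. The WT cells are of the V6.5 line and the KO cells are of a previously made line that lacks DGCR8, a protein needed to process primary microRNA transcripts, so the KO cells make no canonical microRNAs. Both were grown in serum with LIF and 2i, the kinase inhibitors PD0325901 and CHIR99021, and were held in 100 ug/ml cycloheximide for 2 minutes before lysis. Lysates were separated on sucrose gradients of 10 to 50%, and each gradient was collected as monosomes, low polysomes (2 to 4 ribosomes) and high polysomes (4 or more). With 3 gradients per genotype, this gave 18 libraries in 6 groups of 3. Each genotype is a single line, so genotype and line cannot be told apart, and the sources do not say whether the gradients of a genotype came from separate cultures, so p-values measure the spread between these gradients.

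The primitive endoderm is the sheet of extraembryonic cells that forms beside the epiblast in the blastocyst and goes on to make the visceral and parietal endoderm of the yolk sac. GATA6 acts early in this lineage, and SOX17, GATA4 and SOX7 follow it. PDGFRA marks its precursors, DAB2 serves endocytosis and cell positioning at its surface, and the laminin and collagen IV chains are secreted into the basement membrane on which it sits. FGF signalling through MEK favours the primitive endoderm, and PD0325901 inhibits MEK, so ESCs kept in 2i are known for low levels of these genes.

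Library totals were 1151649 to 4984833 counts. Levels are given as CPM, the counts of a gene relative to the library size, scaled with TMM factors, and 3 counts, used as the floor, correspond to 0.689 to 2.65 CPM depending on the library. Reads were taken from the 3′ ends of messages. Dgcr8 (chromosome 16, 18253948 to 18289246, minus strand) kept 38 to 183 reads in each KO library, against 67 to 251 in WT, and was called lower in KO high polysomes (log2 −1.01 ± 0.23, SE). A deletion away from the 3′ end can leave such reads in place, so this gene does not check the genotype. All 14 naive ESC markers listed were expressed, with a summed level of 4380 to 7137 CPM in WT and 4653 to 6306 CPM in KO libraries. The KO low polysome library of gradient 1 stood apart from the others of its group. H19 had 502 reads there and 13 and 24 in gradients 2 and 3, Lin28a had 48 reads against 4 and 6, and Col3a1, a fibroblast collagen, had 28 reads against 0 and 0. The fits, gradient means, ratios, overlaps and correlations that use this library were also computed without it. The values are given where they moved a count or call that is reported here.

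Transcripts of all 4 transcription factors were rare. None of these genes reached 3 CPM in 3 libraries, the limit for testing, so they are described by their reads. Sox17 (chromosome 1, 4490931 to 4497354, minus strand), an SRY-box factor of the extraembryonic and definitive endoderm, had 1, 3 and 1 reads in WT monosomes of gradients 1 to 3, 2, 0 and 2 in low polysomes, and 5, 6 and 8 in high polysomes. In KO cells it had 0, 0 and 1 reads in monosomes, 1, 0 and 0 in low polysomes, and 0, 1 and 1 in high polysomes. Sox17 was thus most frequent in WT high polysomes, where every library held more reads than any KO library of any fraction. Against a floor of 3 counts per library, Sox17 was at least 2.55-fold lower in KO than in WT high polysomes (mean 2.22 ± 0.30 CPM in WT, SD, n = 3). Over the 3 fractions of a gradient, the WT gradients held 8, 9 and 11 Sox17 reads and the KO gradients 1, 1 and 2. The exact permutation test of the mean CPM of each gradient gave p = 0.1 (two-sided), the smallest value that 3 against 3 allows. With no filter on low counts, limma gave Sox17 an adjusted p of 0.000388 in high polysomes and 0.0234 in monosomes.

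Gata6 (chromosome 18, 11052064 to 11085635, plus strand), the earliest of the factors, never had more than 3 reads in a library. It had 1 read in each WT monosome library and none in the 3 KO monosome libraries. WT low polysomes held 1, 2 and 2 reads and KO low polysomes 3, 0 and 1. WT high polysomes held 0, 1 and 1 reads and KO high polysomes 0, 0 and 2. Both genotypes were at or under the floor, so no fold can be given, and the totals were 10 reads in WT and 6 in KO libraries. In monosomes, limma without a filter gave an adjusted p of 0.00775, on counts of 1 against 0.

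Gata4 (chromosome 14, 63198922 to 63271692, minus strand), a GATA factor that acts after GATA6, was the most frequent of the factors, with 29 reads in WT and 50 in KO libraries. It had 0, 1 and 0 reads in WT monosomes, 6, 3 and 3 in low polysomes, and 8, 6 and 2 in high polysomes. In KO cells it had 4, 1 and 1 reads in monosomes, 7, 10 and 6 in low polysomes, and 6, 2 and 13 in high polysomes. The genotypes overlapped in every fraction, and the mean over fractions was 1.16 ± 0.62 CPM in WT and 1.73 ± 0.36 CPM in KO gradients (SD, n = 3, exact permutation p = 0.3). Sox7 (chromosome 14, 63943673 to 63950732, plus strand), an SRY-box factor of the parietal endoderm, had 3 reads in all WT and 4 in all KO libraries, and never more than 1 in a library. Sox7 also overlapped between genotypes in every fraction.

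**Figure D1:**
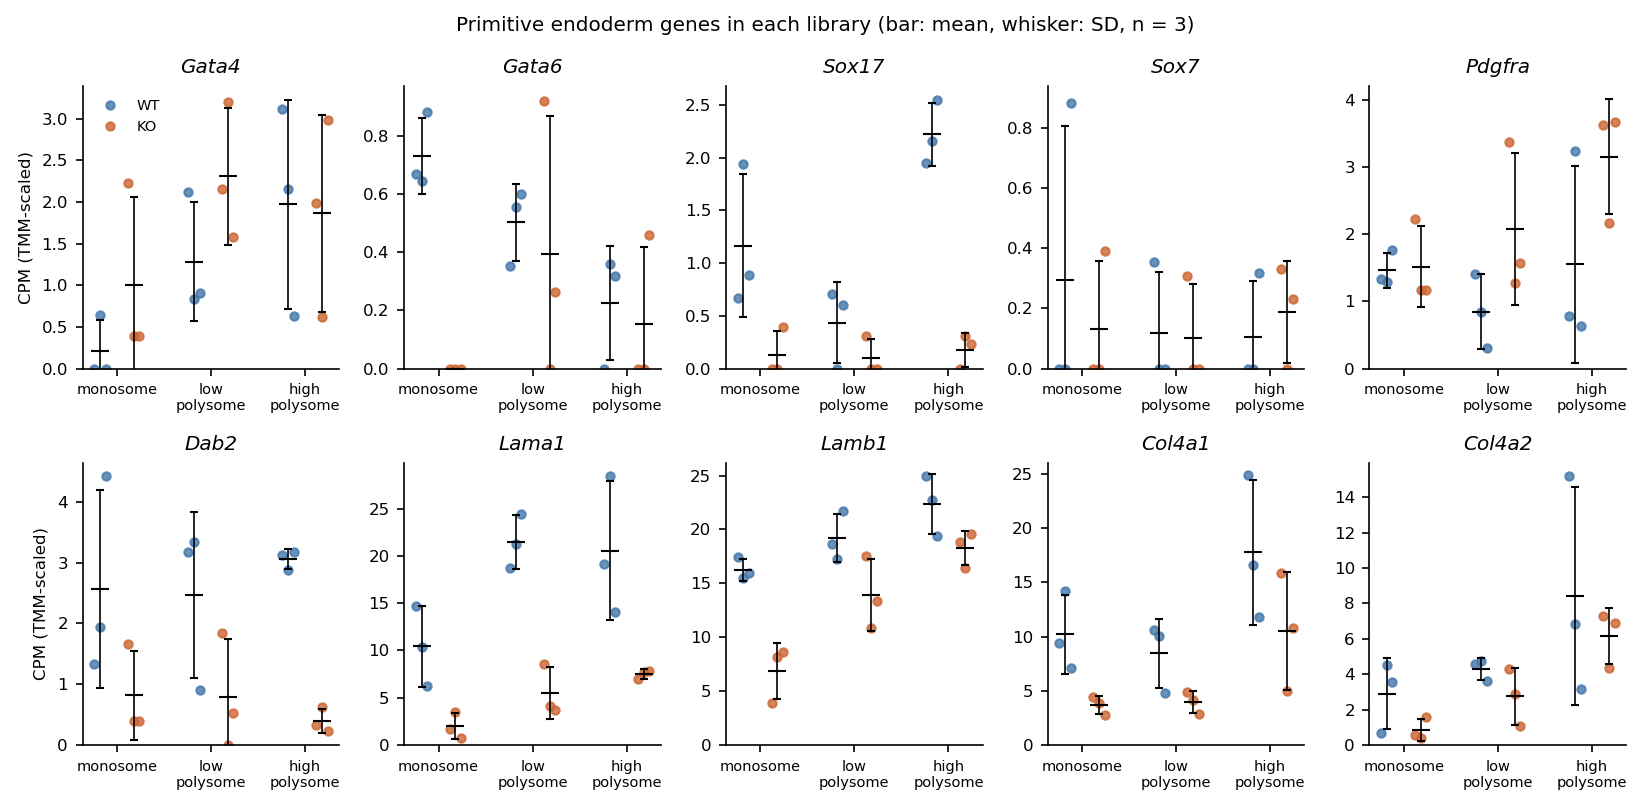
Level of each of the 10 genes in each of the 18 libraries, in CPM scaled with TMM factors on linear axes that start at 0 and differ between panels. WT libraries are blue and KO libraries orange, and the bar and whisker give the mean and SD of 3 libraries. Lama1 and, in high polysomes, Sox17 and Dab2 lie lower in every KO library than in any WT library of the same fraction, whereas the Gata4 and Pdgfra points overlap.

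Pdgfra (chromosome 5, 75152292 to 75198215, plus strand), the receptor for PDGF-A and PDGF-C, had 2 reads in each WT monosome library, 4, 3 and 1 in low polysomes and 2, 9 and 2 in high polysomes. KO libraries held 4, 3 and 3 reads in monosomes, 11, 4 and 6 in low polysomes and 11, 7 and 16 in high polysomes. In high polysomes this was 0.780, 3.24 and 0.637 CPM in WT and 3.64, 2.17 and 3.68 CPM in KO gradients, so the WT library of gradient 2 lay within the KO range. Pdgfra passed the limit for testing in 4 libraries, of which 3 were KO. The KO libraries alone met the limit, so its call above WT is given as a description. It was called higher in KO high polysomes (log2 1.26 ± 0.55, SE, adjusted p = 0.0472 by limma), and this was the only call above WT among the 10 genes. The call was lost with edgeR (adjusted p = 0.107), with DESeq2 (adjusted p = 0.188) and under 4 other settings of scaling, filter, weights or libraries (adjusted p = 0.0531 to 0.0964), and also without WT gradient 1 (adjusted p = 0.155), WT gradient 3 (0.257), KO gradient 1 (0.0829) or KO gradient 3 (0.135). In low polysomes Pdgfra had a log2 difference of 1.23 ± 0.64 (SE) that did not pass the test (adjusted p = 0.102).

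Dab2 (chromosome 15, 6299788 to 6440712, plus strand), which links cargo receptors such as megalin to clathrin, had 2, 3 and 5 reads in WT monosomes, 9, 12 and 3 in low polysomes and 8, 8 and 10 in high polysomes. KO libraries held 3, 1 and 1 reads in monosomes, 6, 0 and 2 in low polysomes and 1, 2 and 1 in high polysomes. All 6 libraries in which Dab2 reached 3 CPM were WT, so it could be tested only through the genotype in which it was high, and its calls are given as a description. In high polysomes the WT gradients were at 3.12, 2.88 and 3.18 CPM and the KO gradients at 0.331, 0.621 and 0.230 CPM, with no overlap. Counted against the floor, Dab2 was at least 3.52-fold lower in KO high polysomes, where limma also called it. In low polysomes it was called lower by limma (log2 −1.93 ± 0.73, SE, adjusted p = 0.0249), although the genotypes overlapped. That call was lost with DESeq2 (adjusted p = 0.0717) and without WT gradient 1 (0.0839), WT gradient 2 (0.113), KO gradient 2 (0.211) or KO gradient 3 (0.0689), and in a fit of the compared libraries alone (0.0513). Without the KO low polysome library of gradient 1, which held 6 of the 8 reads, the log2 difference was −2.82 (adjusted p = 0.00868) and the genotypes did not overlap. In monosomes Dab2 was at least 1.92-fold lower on the same floor, a difference that did not pass the test (adjusted p = 0.109).

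Lama1 (chromosome 17, 67697259 to 67822647, plus strand), the α chain of the laminin that primitive and parietal endoderm secrete, was lower in KO cells in every fraction. Its level in WT gradients 1 to 3 was 14.7, 10.3 and 6.19 CPM in monosomes, 18.7, 21.2 and 24.4 CPM in low polysomes, and 19.1, 28.5 and 14 CPM in high polysomes. In KO gradients it was 1.67, 3.49 and 0.783 CPM in monosomes, 8.61, 4.17 and 3.68 CPM in low polysomes, and 6.94, 7.77 and 7.81 CPM in high polysomes. In each fraction every KO library lay below every WT library. Lama1 fell by 2.47 ± 0.58 on the log2 scale in monosomes (adjusted p = 0.000839), by 2.06 ± 0.31 in the low (adjusted p = 4.91e-07) and by 1.36 ± 0.28 in the high polysomes (adjusted p = 5.95e-05, all by limma with SE). Averaged over fractions, it was 17.5 ± 2.57 CPM in WT and 4.99 ± 0.83 CPM in KO gradients (SD, n = 3), 3.50-fold lower. Every alternative setting tried kept these 3 calls.

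Lamb1 (chromosome 12, 31265234 to 31329644, plus strand), the β chain that pairs with LAMA1, was at 17.4, 15.5 and 15.9 CPM in WT monosomes and at 3.89, 8.15 and 8.62 CPM in KO monosomes, without overlap. It fell by 1.23 ± 0.33 on the log2 scale there (SE, adjusted p = 0.00295 by limma). Without KO gradient 1, the log2 difference was −0.96, short of the fold threshold (adjusted p = 0.0185). In low polysomes the WT gradients were at 18.7, 17.3 and 21.7 CPM and the KO gradients at 17.5, 10.9 and 13.4 CPM, and in high polysomes at 25, 22.7 and 19.4 against 18.8, 16.5 and 19.5 CPM. The genotypes overlapped in both, and the log2 differences of −0.48 ± 0.21 (adjusted p = 0.0507) and −0.27 ± 0.19 (adjusted p = 0.228) did not pass the test. Lamb1 was thus called lower in monosomes alone, and the test of the difference between fractions is the change in translation level given with that of the other genes.

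Col4a1 (chromosome 8, 11198423 to 11312826, minus strand), the more abundant chain of the α1α1α2 collagen IV trimer, was at 9.38, 14.2 and 7.07 CPM in WT and 4.45, 3.88 and 2.74 CPM in KO monosomes. It was at 10.6, 10.0 and 4.82 CPM in WT and 4.92, 4.17 and 2.89 CPM in KO low polysomes, and at 25, 16.6 and 11.8 against 15.9, 4.97 and 10.8 CPM in high polysomes. The genotypes were apart in monosomes and overlapped in the polysome fractions through WT gradient 3 in low polysomes and KO gradient 1 in high polysomes. Col4a1 was lower in monosomes (log2 −1.48 ± 0.53, SE, adjusted p = 0.0254) and in low polysomes (log2 −1.02 ± 0.42, adjusted p = 0.0387). In high polysomes it had a log2 difference of −0.80 ± 0.29, within the fold threshold (adjusted p = 0.0185). The monosome call was lost without WT gradient 2 (adjusted p = 0.175) or KO gradient 3 (0.103) and with no filter on low counts (0.0720). The low polysome call was lost without WT gradient 1 (adjusted p = 0.118), WT gradient 2 (0.154) or KO gradient 3 (0.179), with no filter (0.108) and by limma-trend (log2 −0.92). Col4a1 was called lower in high polysomes without WT gradient 3 (log2 −1.08, adjusted p = 0.00226) or KO gradient 1 (log2 −1.09, adjusted p = 0.00368).

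Col4a2 (chromosome 8, 11312805 to 11449287, plus strand), the other chain of that trimer, was at 0.670, 4.52 and 3.54 CPM in WT and 0.556, 0.388 and 1.57 CPM in KO monosomes. It was at 4.58, 4.74 and 3.61 CPM in WT and 4.30, 2.88 and 1.05 CPM in KO low polysomes. In high polysomes it was at 15.2, 6.85 and 3.18 CPM in WT and 7.27, 4.35 and 6.89 CPM in KO cells. The genotypes overlapped in all 3 fractions, and no difference passed the test (log2 −1.46 ± 0.90 for monosomes, −0.87 ± 0.53 for the low and −0.13 ± 0.39 for the high polysomes, SE). WT gradient 1 had both the lowest monosome and the highest high polysome level of Col4a2 in WT cells. Without it, Col4a2 was called lower in monosomes (log2 −2.21, adjusted p = 0.0343), and the log2 difference in high polysomes was 0.39.

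Of the 10 genes, 6 passed the limit for testing, and these are Pdgfra, Dab2 and the 4 matrix chains. In monosomes 3 of the 6 were called, all lower in KO (Lama1, Lamb1 and Col4a1), where 18.1% of the 12851 genes tested were called, 9.63% lower and 8.43% higher. In low polysomes Lama1 and Col4a1 were called, both lower, and so was Dab2, where 25% of all genes were called and 13.6% were called lower. In high polysomes Lama1 was called lower, as was Dab2, and Pdgfra was called higher, where 33.1% of all genes were called, 17.9% lower and 15.1% higher. Dab2 entered the test only through WT libraries and had to be lower in KO where it differed. Pdgfra met the limit of 3 libraries through KO libraries, which favoured a call above WT. The calls of both genes are therefore not set against these shares. KO libraries lay wholly below WT libraries for 5 of the 10 genes in monosomes (Lama1, Lamb1, Col4a1, Sox17 and Gata6), where 25.7% of genes tested did. This held for 1 gene in low polysomes (Lama1, 28.4% of genes tested) and for 3 in high polysomes (Lama1, Dab2 and Sox17, 33.7%). The shares cover genes tested only, so Sox17 and Gata6 are not set against them, nor is Dab2. In monosomes, Sox17 and Gata6 were at or under the floor in both genotypes. WT gradients 1 and 3 and KO gradient 3 each held 1 Sox17 read there. Without the KO low polysome library of gradient 1, KO libraries lay wholly below WT in low polysomes for 6 of the 10. These were Lama1, Lamb1, Col4a1, Col4a2, Dab2 and Gata6. Of genes tested 32.6% did so, a share against which Dab2 and Gata6 are not set, for the same reasons. WT gradient 1 and KO gradient 3 each held 1 Gata6 read in low polysomes. No gene of the 10 lay wholly above WT in any of the 3 fractions, as 29.9% of genes tested did in high polysomes. Averaged over the 3 fractions, KO gradients lay below WT gradients for Sox17, Gata6, Dab2, Lama1 and Lamb1, and for none of the 10 lay above them. Of genes tested, 35.5% lay below and 32.3% above, and Sox17, Gata6 and Dab2 are again not set against these shares. Gata6 held 2, 4 and 4 reads in WT gradients 1 to 3 and 3, 0 and 3 in KO gradients. KO gradients 1 and 3 thus held more Gata6 reads than WT gradient 1, and the separation in CPM depends on library size. Averaged over monosomes and high polysomes only, which leaves out the KO low polysome library of gradient 1, KO gradients lay below WT gradients for the same 5 genes. No share of all genes was computed for this mean, and the limits given for Sox17, Gata6 and Dab2 hold here too. In bulk libraries such as these, fewer cells that express a gene and less RNA per cell cannot be told apart.

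**Figure D2:**
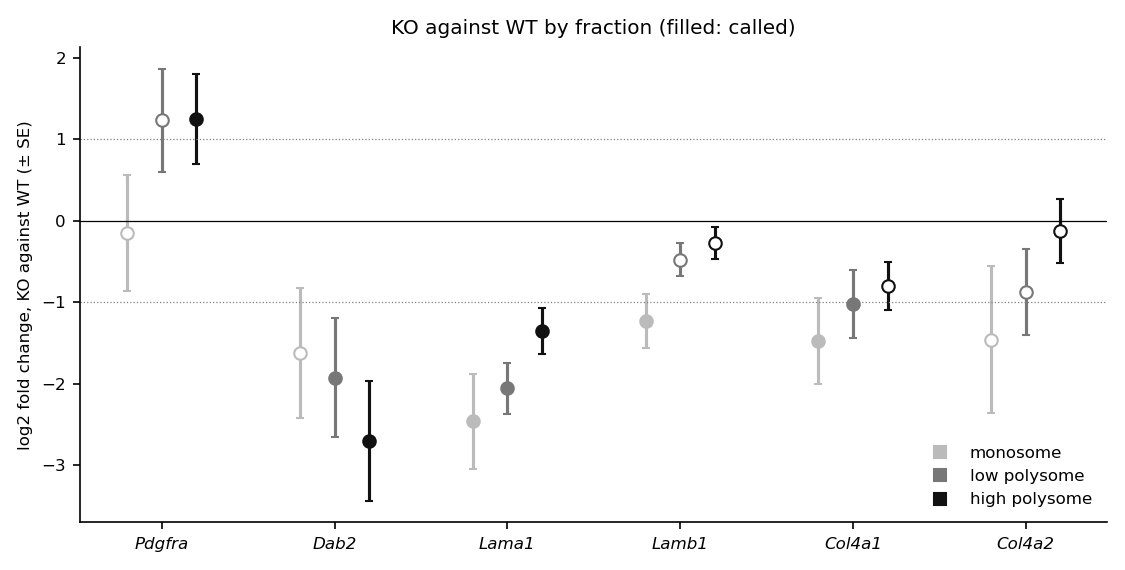
Log2 fold change of KO against WT in each fraction for the 6 genes tested, with the SE of the limma-voom fit, filled where called and open where not, and dotted lines at a log2 of −1 and 1. Lama1 is filled in all 3 fractions, and the 4 matrix genes each lie lowest in monosomes and nearest to 0 in high polysomes. The Dab2 values in monosomes and high polysomes and the Pdgfra value in monosomes rest on a group at 3 counts or fewer and are not bounds.

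The translation level of a gene was taken as its high polysome to monosome ratio within a gradient, on the log2 scale. For Lamb1 this was 0.50, 0.53 and 0.28 in the WT gradients and 2.09, 0.95 and 1.12 in the KO gradients, so all KO gradients were above all WT gradients. The share of all genes that separate in this way was not computed, so the separation is given as a description. For Lama1 it was 0.36, 1.40 and 1.09 in WT and 1.68, 1.01 and 2.51 in KO, and for Col4a1 1.35, 0.21 and 0.68 in WT and 1.68, 0.31 and 1.73 in KO. Both genes overlapped between genotypes. For Col4a2 it was 3.52, 0.53 and −0.12 in WT and 2.65, 2.19 and 1.74 in KO, and the spread among WT gradients exceeded the difference.

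In KO cells, 4 of the 6 genes tested were called higher in high polysomes than in monosomes, and these were the 4 matrix chains. The values were 2.00 ± 0.55 for Lama1, 1.38 ± 0.29 for Lamb1, 1.36 ± 0.47 for Col4a1 and 2.70 ± 0.75 for Col4a2 (log2, SE, adjusted p from 5.96e-05 to 0.0105). In KO cells 43% of all genes were called in this comparison, and 17.5% of all genes were called higher. In the top decile of coding length, where the 4 matrix chains lie, 41.7% of genes were called higher. The Col4a1 call was lost without KO gradient 1 (adjusted p = 0.0525) or KO gradient 3 (0.122). In WT cells none of the 6 was called by limma, where 30.1% of all genes were. High polysome libraries lay wholly above monosome libraries in WT cells for 2 of the 10 genes (Sox17 and Lamb1, 30.6% of genes tested) and wholly below for 1 (Gata6, 30.2%). Sox17 and Gata6 were not tested, so they are not set against these shares. At an unadjusted p under 0.05 stood Lama1 (log2 0.89 ± 0.34, adjusted p = 0.0268, within the fold threshold) and Col4a2 (log2 1.37 ± 0.64, adjusted p = 0.0693) in WT cells. Col4a2 was called higher there with the gradient as a block (log2 1.41, adjusted p = 0.0374), with edgeR (log2 1.497, adjusted p = 0.0213), with DESeq2 (log2 1.53, adjusted p = 0.0290) and without WT gradient 3 (log2 2.20, adjusted p = 0.0149). Lama1 passed the fold threshold without WT gradient 1 (log2 1.19, adjusted p = 0.0356).

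The change in translation level between genotypes, tested as an interaction, was not called for any of the 6 genes by limma, where 15.1% of all genes were called, 6.29% higher and 8.81% lower. Lamb1 came nearest, with a log2 change of 0.96 ± 0.38 (SE, adjusted p = 0.0563), and was the only 1 of the 6 at an unadjusted p under 0.05. Without KO gradient 2, Lamb1 was called (log2 1.17, adjusted p = 0.0454), and without WT gradient 1, Col4a2 was called (log2 2.61, adjusted p = 0.0363). No member was called by edgeR or DESeq2. Lama1 had a log2 change of 1.11 ± 0.65, Col4a2 of 1.33 ± 0.98 and Col4a1 of 0.68 ± 0.61, each within 2 SE of 0. The lower level of Lama1 in KO high polysomes stands beside lower levels in the other fractions, and whether it was smaller there than in monosomes could not be resolved.

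**Figure D3:**
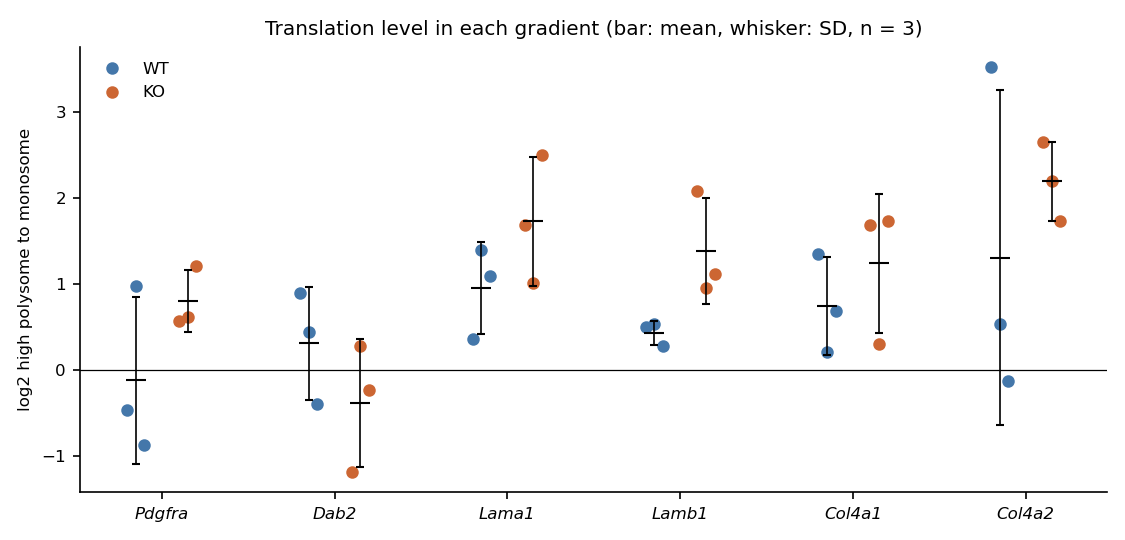
Log2 high polysome to monosome ratio of the 6 genes tested in each of the 6 gradients, with a prior count of 2. WT gradients are blue and KO gradients orange, and the bar and whisker give the mean and SD of 3 gradients. For Lamb1 the 3 KO gradients lie above the 3 WT gradients, whereas for the other genes the genotypes overlap, and the WT gradients of Col4a2 run from −0.12 to 3.52. The share of all genes that separate as Lamb1 does was not computed.

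The matrix chains are encoded by long messages. Their coding length was 9249 bases for Lama1, 5502 for Lamb1, 5121 for Col4a2 and 5007 for Col4a1, all in the top decile of the protein-coding genes tested, whose median was 1359 bases. Pdgfra (3267 bases) was in decile 9 and Dab2 (2298 bases) in decile 8. The change in translation level rose with coding length over all genes, from a median log2 of −0.94 in decile 1 to 0.62 in decile 10, and 18.4% of genes in decile 10 were called higher against 0.34% in decile 1. Set against the middle 50% of genes of its own decile, which ran from a log2 of 0.26 to 1.02 in decile 10, Lamb1 and Col4a1 lay within that range and Lama1 and Col4a2 above it. In KO against WT within a fraction, the 4 matrix chains lay below the middle 50% of their decile in each of the 3 fractions. Dab2 was tested only through WT libraries, so its values are not set against the range of decile 8. In high polysomes, where decile 10 had a median log2 of 0.66, Lama1 lay at −1.36 and Col4a1 at −0.80.

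**Figure D4:**
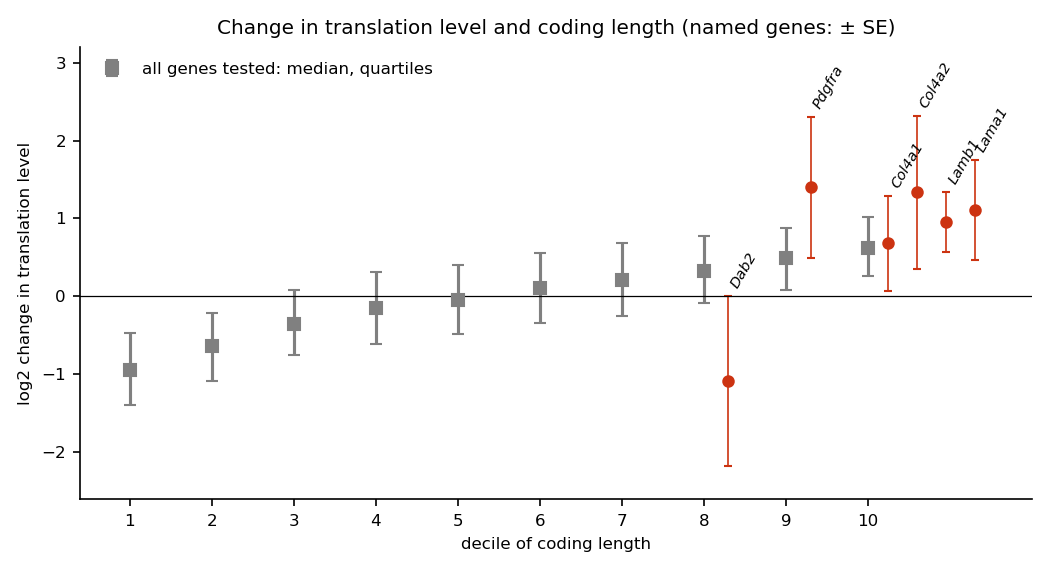
Change in translation level (log2, KO against WT) by decile of coding length. Grey squares and bars give the median and quartiles of all protein-coding genes tested in a decile, and red points give the 6 genes with the SE of the limma-voom fit, drawn to the right of their decile. The grey medians climb from −0.94 to 0.62, and Lamb1 and Col4a1 lie within the quartiles of decile 10.

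Col4a1 and Col4a2 lie head to head, and their start sites in RefSeq (GRCm38.p6) are 21 bases apart, at 11312826 on the minus strand and 11312805 on the plus strand of chromosome 8. Over the 18 libraries their log2 CPM had a Pearson r of 0.72, given as a description, since the libraries share gradients and fractions. The windows of 300 bases around each start are shown because they share 78 bases (chr8:11312777-11312854), printed in capitals and read from opposite strands.
Col4a1 (chr8:11312777-11313076, minus strand): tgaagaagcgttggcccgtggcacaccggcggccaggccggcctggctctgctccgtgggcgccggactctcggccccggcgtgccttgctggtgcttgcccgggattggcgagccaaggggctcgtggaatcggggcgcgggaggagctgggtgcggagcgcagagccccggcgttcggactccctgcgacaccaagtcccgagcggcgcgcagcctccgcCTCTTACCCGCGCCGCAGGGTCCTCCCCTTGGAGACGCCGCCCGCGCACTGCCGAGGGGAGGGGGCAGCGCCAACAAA
Col4a2 (chr8:11312555-11312854, plus strand): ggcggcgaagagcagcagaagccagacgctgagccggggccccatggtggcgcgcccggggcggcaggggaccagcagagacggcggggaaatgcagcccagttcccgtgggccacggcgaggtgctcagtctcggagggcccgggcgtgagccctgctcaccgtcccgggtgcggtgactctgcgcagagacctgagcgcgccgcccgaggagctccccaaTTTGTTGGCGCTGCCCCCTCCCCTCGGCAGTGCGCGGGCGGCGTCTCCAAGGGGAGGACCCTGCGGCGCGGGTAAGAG
The GC content was 74% in the Col4a1 window and 73.7% in the Col4a2 window, against a median of 52.7% over 32851 windows. The GATA motif AGATAA, searched also as TTATCT on the other strand, was in neither. Among the 6 windows found for 5 of the 10 genes, 1 of the 2 Dab2 windows held it, and 11.2% of all windows did.

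Since KO cells lack canonical microRNAs, the 3′ untranslated regions (UTRs) of the 10 genes were searched for matches to the seeds of 3 families. These are miR-294 and its relatives with the same seed, which are abundant in ESCs, let-7, which appears on differentiation, and miR-29, known for matches in collagen messages. Mature sequences from RefSeq are shown with the seed, bases 2 to 8, in capitals.
miR-294-3p: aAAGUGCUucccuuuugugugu
miR-302d-3p: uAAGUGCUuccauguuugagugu
let-7a-5p: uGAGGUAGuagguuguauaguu
miR-29a-3p: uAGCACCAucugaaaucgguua
A match was either the complement of the whole seed or that of bases 2 to 7 followed by an A. The letters searched were AGCACTT or GCACTTA for miR-294 and its relatives, CTACCTC or TACCTCA for let-7, and TGGTGCT or GGTGCTA for miR-29, on the message strand only. A miR-29 match was found in 7 of the 10 genes, namely Col4a1, Col4a2, Pdgfra, Dab2, Gata4, Gata6 and Sox7, and in 17.8% of the protein-coding genes tested. Let-7 matches were found in 2 of the 10 (15.6% of genes tested) and miR-294 matches in 1 (19.4%). The UTRs of Lama1 (198 bases) and Lamb1 (151 bases) were short and held no match to any of the 3, and Sox17 (785 bases) held none either. The matches of the genes tested are printed with 8 bases on each side and the match in capitals, as in the GENCODE transcripts.
Col4a1, let-7, UTR base 113: atcctgtgTACCTCActgtccac
Col4a2, let-7, UTR base 235: taacttatTACCTCAgatgctga
Col4a1, miR-29, UTR base 33: tcacaacaTGGTGCTactccccc
Col4a1, miR-29, UTR base 337: aacccaaaGGTGCTAggggcgtg
Col4a2, miR-29, UTR base 43: ggccacgtTGGTGCTtatccttc
Col4a2, miR-29, UTR base 214: acccagctTGGTGCTtactctta
Dab2, miR-29, UTR base 601: gccccaagTGGTGCTtacatttg
Pdgfra, miR-29, UTR base 1265: gaccacaaTGGTGCTgttgaatg
Pdgfra, miR-29, UTR base 1426: gaactgccTGGTGCTcttgaata
Col4a2, miR-294, UTR base 667: gagatgatAGCACTTttttctat
Col4a2, with matches to all 3 families, did not differ detectably between genotypes, and Col4a1 and Dab2, with matches to miR-29, were lower in KO cells in 2 fractions each. Pdgfra, with 2 miR-29 matches, was the gene called higher in KO high polysomes. A match is a sequence only, and whether any of these is used in these cells was not tested.

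The calls among other genes of the basement membrane were all above WT, whereas those of Lama1 and Col4a1 were below. Of 27 laminin, collagen, nidogen, proteoglycan and receptor genes listed as partners, 19 were tested, and 16 were called higher and 0 lower in KO high polysomes (median log2 1.32, against −0.08 for all genes tested, of which 15.1% were called higher). Of the 19, 16 lay in the top 2 deciles of coding length. In high polysomes 27.5% of genes in decile 9 and 31.1% of those in decile 10 were called higher. With library totals in place of TMM factors, 10 were called higher. Low polysomes had 6 above WT (3 with DESeq2 size factors or totals, 4 without the KO library of gradient 1), against 11.4% of all genes, monosomes had 1, against 8.43%, and neither fraction had any called below WT. The change in translation level was called higher for 10 of the 19 and lower for 0 (7 with totals), against 6.29% of all genes and 18.4% of those in decile 10. The KO translation level was called higher for 17, against 17.5% of all genes, 26.2% of those in decile 9 and 41.7% in decile 10. The WT translation level was called higher for 8, against 10.7% of all genes, 7.90% of those in decile 9 and 11.2% in decile 10.

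Itgb4, the β4 integrin that binds laminin in hemidesmosomes, rose most, from 11.3 ± 2.81 CPM in WT to 115 ± 13.2 CPM in KO high polysomes (SD, n = 3, log2 3.34 ± 0.21 SE, adjusted p = 1.6e-16 by limma). Lama5, an α chain that can take the place of LAMA1, rose from 45.0 ± 0.54 to 187 ± 23.1 CPM there (log2 2.04 ± 0.14). Lamb2, a β chain that can take the place of LAMB1, rose from 32.5 ± 2.17 to 121 ± 19.5 CPM (log2 1.89 ± 0.16). Col18a1, a basement membrane collagen from which endostatin is cut, rose from 187 ± 32.4 to 745 ± 171 CPM (log2 1.99 ± 0.15). Lamc1, the γ chain that LAMA1 and LAMB1 assemble with, was chosen after its values were seen. It rose from 358 ± 42.9 CPM in WT to 999 ± 173 CPM in KO high polysomes (log2 1.48 ± 0.12), and was not called in monosomes (log2 0.58 ± 0.15) or low polysomes (log2 0.52 ± 0.13). Of the other collagen IV chains, Col4a3 had no read in any library and Col4a4, Col4a5 and Col4a6 had 1, 7 and 5 reads in all.

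The balance of laminin chains was followed by ratios within a gradient. The ratio of Lama1 to Lama5, each averaged over the 3 fractions of a gradient, was 0.348, 0.349 and 0.306 in WT and 0.0432, 0.0400 and 0.0316 in KO gradients, 8.78-fold lower in KO cells. The ratio of Lamb1 to Lamb2 was 0.605, 0.577 and 0.556 in WT and 0.195, 0.170 and 0.164 in KO gradients, 3.30-fold lower. For both ratios the gradients did not overlap (exact permutation p = 0.1, two-sided, the smallest that 3 against 3 allows). Over monosomes and high polysomes only, the ratios were 9.27-fold and 3.91-fold lower, again without overlap. These 2 ratios were chosen after the values of the genes had been seen.

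**Figure D5:**
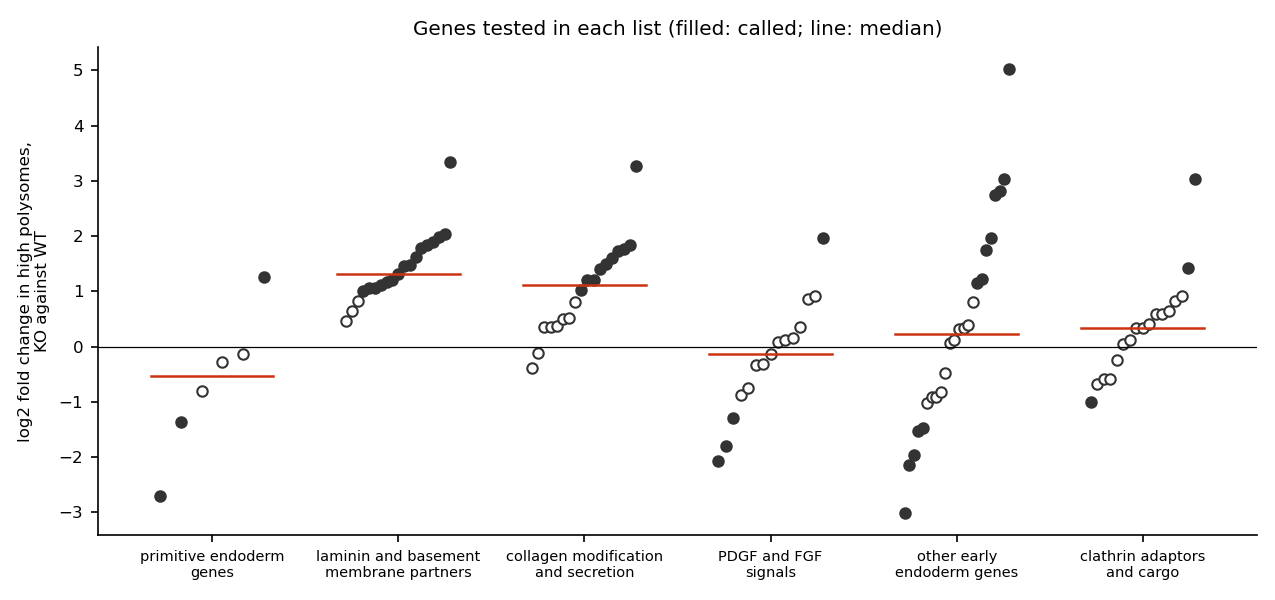
Log2 fold change of KO against WT in high polysomes for each gene tested, ranked within 6 lists, filled where called, with a red line at the list's median. Of the basement membrane partners 16 of 19 are filled and all lie above 0. Of the 6 primitive endoderm genes 5 lie below 0, where the median of all genes tested was −0.08. Among those 5 only Lama1 and Dab2 are filled, and Dab2 was tested only through WT libraries. No share of all genes below 0 was computed.

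Of 20 listed genes that modify, fold or export collagen chains, 18 were tested, and in high polysomes 10 were called higher and 0 lower (median log2 1.12, 7 higher with library totals), against 15.1% of all genes called higher. The other 8 did not pass, and 2 of them had a log2 difference below 0. Low polysomes had 7 called above WT (11.4% of all genes) and monosomes 3 (8.43%), with none called below in either. The 7 in low polysomes became 6 with DESeq2 size factors, with totals or without the KO library of gradient 1. Plod3, a lysyl hydroxylase of collagen, rose from 70.0 ± 9.94 to 249 ± 24.8 CPM in high polysomes (log2 1.83), and P3h1, a prolyl hydroxylase, from 160 ± 9.43 to 546 ± 20.7 CPM (log2 1.77). Fkbp10, a collagen chaperone, rose from 8.79 ± 1.5 to 25.9 ± 4.98 CPM (log2 1.504), and Mia3, which exports large collagens from the endoplasmic reticulum, from 72.5 ± 4.50 to 191 ± 20.9 CPM (log2 1.40, all SD, n = 3).

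Around the receptor, 15 of 17 PDGF and FGF pathway genes were tested, and 1 was called higher and 3 lower in high polysomes (median log2 −0.13), where 15.1% of all genes were called higher and 17.9% lower. Low polysomes had 1 higher and 2 lower (1 lower without the KO library of gradient 1), and monosomes 2 of each. Pdgfc, which encodes a ligand of PDGFRA, rose from 43.1 ± 6.70 to 168 ± 28.8 CPM (log2 1.96) and was also higher in monosomes (log2 2.35) and low polysomes (log2 2.18). Pdgfa, which encodes another ligand, was called higher in monosomes (log2 1.26 ± 0.12 SE, adjusted p = 5.3e-11 by limma) but not in low polysomes (log2 0.74) or high polysomes (log2 0.36). Ptpn11, a phosphatase that relays receptor signals to RAS, fell from 96.1 ± 8.49 to 39.1 ± 3.40 CPM (log2 −1.30). The other genes called lower were Fgfr3 and Fgfr4. Of 18 clathrin adaptors and cargo receptors of the DAB2 kind, 17 were tested, and 2 were called higher and 1 lower in high polysomes (median log2 0.35), both below the shares of all genes. Ap2s1, a subunit of the AP2 adaptor, fell from 79.3 ± 8.08 to 39.6 ± 10.4 CPM (log2 −1.002), just past the fold threshold. With DESeq2 size factors no gene of this list was called lower there. In this list 14 of 17 genes were not called there, where 33.1% of all genes were called. Dab2 was tested only through WT libraries, so it is not set against this list.

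Of 47 other genes used in the early endoderm, 24 were tested, and 8 were called higher and 5 lower in high polysomes (median log2 0.23). Of all genes 15.1% were called higher and 17.9% lower there, so the count of 5 lower is near the background. Lefty1, a Nodal inhibitor of the anterior visceral endoderm that ESCs also make, rose from 140 ± 7.17 to 4594 ± 928 CPM (log2 5.02). Dpp4, a surface peptidase, rose from 26.3 ± 0.85 to 187 ± 12.8 CPM (log2 2.82), Gpc3, a glypican, from 121 ± 15.0 to 827 ± 167 CPM (log2 2.75) and Apoe, an apolipoprotein, from 1282 ± 96.6 to 4384 ± 841 CPM (log2 1.76). The 5 called lower were Hhex, Rbp4, Cited1, Clic6 and Cldn6, the first a homeobox factor of the anterior visceral endoderm and the second a retinol carrier of the visceral endoderm.

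The matrix chains and Pdgfra are also made by fibroblasts, so a list of 12 fibroblast genes was examined. The summed level of the list was 19.5 to 31.5 CPM in WT and 11.6 to 17.6 CPM in KO monosomes, and 22.9 to 35.5 CPM in WT and 37.6 to 55.2 CPM in KO high polysomes. In low polysomes it was 27.5 to 33.5 CPM in WT, and 49.5, 19.5 and 22.9 CPM in KO gradients 1 to 3, highest in the library that stands apart. Dcn, Postn and S100a4 never had more than 3 reads in a library. Of the 5 genes tested, Col1a1 was called lower in KO cells in all 3 fractions and Col5a1 was called higher in high polysomes. The part of fibroblast RNA in the levels of the matrix chains was not tested.

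For each gene tested, the genes most alike in log2 CPM over the 18 libraries were sought among 7449 genes with a mean count of 50 or more, as a description. Lama1 was most like Pros1 (Pearson r 0.926), Notch3 (0.918) and Ptcd2 (0.915), and Lamb1 was most like Riox1 (0.921), Notch3 (0.904) and Tln2 (0.877). Col4a1 was most like Gldc (0.903), Sik1 (0.895) and Tubb3 (0.884), Col4a2 most like Fdps (0.826), Dab2 most like Pard6g (0.861) and Pdgfra most like Smpd2 (0.862). Among the genes themselves, Lama1 and Lamb1 had an r of 0.83, and Pdgfra had an r between −0.20 and 0.16 with each of the others (−0.25 to 0.16 without the KO low polysome library of gradient 1).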

How the data were processed

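The authors deposited raw counts of 3′ end reads (QuantSeq 3′ FWD) per gene. They trimmed reads with cutadapt 1.14, aligned them to mm10 with STAR 2.5.3a, kept unique alignments and counted them by strand with featureCounts 1.5.3 over the GENCODE M14 basic annotation without ribosomal RNA genes. No molecular identifiers were stated, so floors cover counting error only. The 92 spike-in entries were left out.

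Genes with 3 CPM in 3 libraries were tested (12851). TMM factors set the library sizes, and limma-voom (limma 3.58.1, R 4.3.3) fitted 1 mean per group, with two-sided tests. Benjamini-Hochberg adjustment ran across the whole table. Calls needed an adjusted p below 0.05 together with a log2 difference beyond 1 in either direction. The test, filter and interaction term follow the study's methods. Alternatives were edgeR 4.0.16, DESeq2 1.42.0, limma-trend, other scalings and filters, replicate blocks and leaving out each gradient. The code was tested on simulated data.

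Same-numbered fractions of a genotype come from the same gradient. Their deviations from the group means correlated at 0.032 to 0.135 over 18 pairs, and the gradient block is therefore given where it changes a call.

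The genes, lists and tests were chosen with earlier results of these data known. All 10 genes are named. From each list, up to 4 genes are named, those called in high polysomes with the largest absolute log2 change and a mean count of 50 or more. A gene that this rule also picks is not reported here. Lamc1, Fgfr3, Fgfr4, the collagen IV chains and the early endoderm genes called lower are named beyond that rule. Gene models are from GENCODE M21 (GRCm38), sequences of microRNAs and start sites from RefSeq (GRCm38.p6). Each gene was represented by the principal transcript with a 3′ UTR. Protein sequences were not used here.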

Additional observations from a re-analysis of the deposited data

How the results depend on the processing

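Over the 36 values of the 6 genes tested and their alternatives, 560 of 612 recomputed values kept their direction and their side of the threshold, 27 lost a call, 17 gained 1 and 8 changed sign. The changes of sign were all in values that were not called. They were Pdgfra in monosomes, with a log2 of 0.014 by edgeR, 0.025 by DESeq2 and 0.0098 by limma-trend, the WT translation level of Pdgfra, with 0.092 by edgeR, 0.096 by DESeq2 and 0.18 without WT gradient 3, and Col4a2 in high polysomes, with 0.39 without WT gradient 1 and 0.081 without KO gradient 2. Leaving out 1 gradient at a time moved Col4a2 in high polysomes between −0.72 and 0.39 and the WT translation level of Pdgfra between −1.05 and 0.18. With a filter of 10 CPM, 1 gene was called in high polysomes. The WT translation level, with 0 calls, had 2 calls with no filter (Lama1 and, with 1 read in WT monosomes, Gata4) and 1 call each by edgeR, DESeq2, limma-trend, with only the libraries compared and with no fold threshold. Leaving out 1 gradient at a time gave 2 to 4 calls in monosomes, 1 to 3 in low polysomes, 2 to 3 in high polysomes, 0 to 1 for the change in translation level, 0 to 1 for the WT and 3 to 4 for the KO translation level. The replicate block, by gradient or by number, gave 1 call in the WT translation level (Col4a2) and changed no other call of the 6 genes. Between genotypes, same-numbered libraries share only a number, and their deviations correlated at 0.00018 to 0.102 over 9 pairs. Library totals in place of TMM factors moved the median log2 of all genes from −0.08 to −0.31 in high polysomes and from 0.01 to −0.32 for the change in translation level, and the share of calls that were higher from 45.8 to 31.4%, from 41.6 to 12% and, for the KO translation level, from 40.6 to 28.3%. With library totals and no allowance for that shift, no tested gene of the 10 changed direction, Pdgfra lost its call in high polysomes and Col4a1 gained 1. Without the KO low polysome library of gradient 1, a setting chosen after seeing the data, as were the scalings of the lists and the means over monosomes and high polysomes, the same genes of the 10 were called in each fraction. Depth limits the transcription factors, Pdgfra and Dab2, whose differences rest on few reads. The causes of these changes were not tested.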

Other observations

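Markers of other cell types were counted in the same libraries. Of 7 endothelial genes, 3 were tested (Pecam1, Tek and Kdr), and all 3 were called higher in KO low and high polysomes, against 11.4% and 15.1% of all genes, with a summed level of the list of 425 to 475 CPM in WT and 1220 to 1569 CPM in KO high polysomes. Cdh5 and Emcn never had more than 3 reads in a library. Of 5 definitive endoderm genes beside the 10, 2 were tested, Cxcr4 was called higher in high polysomes (15.1% of all genes) and Cer1 had no read in any library. Of 10 trophoblast genes, 4 were tested, Ascl2 was called lower in low polysomes (13.6% of all genes), and Tpbpa and Prl3d1 had no read. Of 7 formative or primed epiblast names listed, 6 were matched, since Oct6 is an older name of Pou3f1, and 5 genes were tested. Pou3f1 was called lower in all 3 fractions (9.63, 13.6 and 17.9% of all genes in monosomes, low and high polysomes). Zic2 and Sox3 were called higher in low polysomes (11.4% of all genes). Without the KO low polysome library of gradient 1, 1 gene of the list was called higher there. Of 7 mesoderm and primitive streak genes, 2 were tested, and Kdr was called higher in low and high polysomes. Of the 14 naive ESC markers, Klf2 was called higher in all 3 fractions and Pou5f1 and Dppa5a were called lower in high polysomes.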
